A study of Mus musculus with 22 samples.

Results

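Cerebellins are small secreted proteins of the C1q family, and Cbln1, Cbln2, Cbln3 and Cbln4 encode them. Their values were followed here across 3 brain regions of mice with lowered circTulp4, together with Grid1, which encodes a delta glutamate receptor to which cerebellins bind, and Gm2694, a long noncoding RNA gene whose first exon lies beside that of Cbln1. These 6 genes were taken by name from the 23037 genes that could be matched in the count table. They were put together because Gm2694 was higher in the cortex of the deficient mice in these data, with the question of whether it varies together with its neighbour Cbln1. The genes were thus chosen by their values in CD against wild-type cortex, which are described for all 6 genes without a test.

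Cerebellins act in the synaptic cleft. They are released from the presynaptic side, bind neurexins there, and reach across to delta receptors on the postsynaptic cell, so that the complex holds the contact together and organizes both sides. Cbln1 is best known from the cerebellum, where granule cells release it at the contacts of their parallel fibres with Purkinje cells. Cbln3 is made by the same granule cells and needs Cbln1 to leave the cell. Cbln2 and Cbln4 are made in forebrain neurons, and Cbln4 also binds the netrin receptors Dcc and neogenin. Delta receptors have the build of ionotropic glutamate receptors but serve mainly as synaptic adhesion molecules.

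CD mice, the circTulp4-deficient line, carry a CRISPR-Cas9 change of AG to TC at the splice acceptor used to form circTulp4, a circular RNA of the Tulp4 gene, which lowers this RNA without removing it. They were kept on a C57BL/6 background and compared with wild-type mice. RNA of whole dissected hippocampus, cortex and cerebellum was sequenced from the 3′ end (CelSeq2) in 22 libraries from 8 mice. There were 3 wild-type and 4 CD hippocampi, 4 and 4 cortices, and 4 and 3 cerebella, and the age and sex of these mice were not given in the sources used here. All CD mice belong to a single line.

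Libraries held between 2760846 and 8858940 counts with each gene represented by 1 transcript, so that 5 cpm (counts scaled to the library size) stood for 13.8 to 44.3 counts. As a check of the labels, counts in the exon that Tulp4 shares with circTulp4, beyond those of its other transcripts, came to 2.71 to 3.69 cpm for the wild-type hippocampus and 0.42 to 0.57 cpm for 3 of the CD hippocampi. The library labelled CD hippocampus of mouse m118 had 3.98 cpm from 16 counts and went against its label, so genotype values of the hippocampus are given with and without it. The same measure was 1.45 to 6.02 cpm in wild-type and 0.14 to 1.29 cpm in CD cortices, where the nearest pair was wild-type mouse m244 (4 counts) and CD mouse m190 (8 counts), and 3.12 to 13.6 cpm in wild-type and 0.60 to 2.61 cpm in CD cerebella. Marker genes followed the dissection. The summed level of 7 granule cell markers was 1733 to 2227 cpm in cerebella and 113 to 310 cpm in cortices, and that of 5 forebrain excitatory neuron markers was 212 to 402 cpm in cerebella and 1640 to 2422 cpm in cortices. In tissue RNA, fewer cells of a type and less RNA per cell cannot be told apart.

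Cbln1 and Gm2694 lie head to head on mouse chromosome 8 (GRCm38, the build of the deposited mm10 alignments). In the RefSeq annotation Cbln1 runs on the minus strand at chr8:87468853-87472592, and Gm2694 on the plus strand at chr8:87472812-87525554. Their facing starts are separated by 219 bases, and their 3′ ends, where this assay reads RNA, are 56.7 kb apart. The counted transcripts NR_033430.1 and NR_125722.1 of Gm2694 share no exon base with Cbln1 transcript NM_019626.3, so that a read of an exon end of these could not belong to both genes. Of 11 Gm2694 transcripts in GENCODE, 1 starts on the far side of Cbln1, at 87460469, and runs across it on the other strand. The 2 Gm2694 transcripts differ in the first exon, at chr8:87472812-87472960 and chr8:87473134-87473230 in GENCODE, and share the last 140 bases of the last exon, which ends at 87525554. Counts at this end cannot tell which start was used. Of the 447 exon bases of NR_125722.1, 350 (78.3%) are also in NR_033430.1, so 1 read may count for both. Cbln3 lies at chr14:55878920-55884256 (minus strand), Grid1 at chr14:34820003-35583387 (plus strand) and Cbln4 at chr2:172036336-172043466 (minus strand).

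RefSeq promoter windows of GRCm38.p6, which hold 250 bases before and 50 after a start, were matched for 3 of the 6 genes. They are shown because Gm2694 and Cbln3 were both far higher in the cerebellum and Cbln4 far lower there (values below), and they are printed 5′ to 3′ along each gene's own strand. Capitals mark matches, on either strand, of 6 motifs searched: the GC box GGGCGG, the E-box CACGTG that binds factors of the Myc kind, the other E-boxes CAGCTG (bound by neuronal factors) and CAGATG (bound by proneural factors), the TATA box in its form TATAAA and the CCAAT box. Matches of the GC box may overlap each other, as the pair in the Cbln4 window does.
Gm2694, chr8:87472866-87473165, plus strand: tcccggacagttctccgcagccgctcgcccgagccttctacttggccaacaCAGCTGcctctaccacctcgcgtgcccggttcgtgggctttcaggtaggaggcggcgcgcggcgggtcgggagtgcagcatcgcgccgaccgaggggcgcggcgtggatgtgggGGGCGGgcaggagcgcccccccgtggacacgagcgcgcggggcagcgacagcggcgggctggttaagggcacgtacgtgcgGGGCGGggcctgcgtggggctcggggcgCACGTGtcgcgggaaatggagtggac
Cbln3, chr14:55884207-55884506, minus strand: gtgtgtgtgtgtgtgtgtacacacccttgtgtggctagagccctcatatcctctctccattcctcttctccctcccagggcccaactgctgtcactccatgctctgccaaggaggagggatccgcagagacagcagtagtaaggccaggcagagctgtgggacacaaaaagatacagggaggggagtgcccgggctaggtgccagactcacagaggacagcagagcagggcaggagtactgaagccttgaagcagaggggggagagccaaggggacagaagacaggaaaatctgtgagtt
Cbln4, chr2:172043417-172043716, minus strand: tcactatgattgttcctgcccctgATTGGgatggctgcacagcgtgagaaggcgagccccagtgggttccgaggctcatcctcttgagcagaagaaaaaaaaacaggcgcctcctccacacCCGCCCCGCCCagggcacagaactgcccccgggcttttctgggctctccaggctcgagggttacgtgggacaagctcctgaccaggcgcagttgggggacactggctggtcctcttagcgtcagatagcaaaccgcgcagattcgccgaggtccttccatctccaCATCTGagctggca

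The start used for the Gm2694 window is at 87473116, and the window covers most of the first exon of NR_033430.1. It is a CG-rich sequence with 42 CG dinucleotides, more than 97% of the 32851 RefSeq windows, whose median is 7, and a GC content of 73.7%. It holds GGGCGG at positions 166 and 247, found in 35.7% of all windows, CACGTG at 275, found in 7.15%, and CAGCTG at 52, found in 16.3%. The Cbln3 window is of another kind, with 2 CG dinucleotides, a GC content of 57% and no match to any of the 6 motifs. The Cbln4 window has 15 CG dinucleotides, GGGCGG at 122 and 127, CAGATG at 287 (17.2% of windows) and CCAAT at 25 (37.4%). TATAAA, found in 13.6% of windows, was in none of the 3. These matches describe the sequence only. Since the Cbln3 window held no match, the motifs allow no comparison of Gm2694 with Cbln3, which share their regional pattern.

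The 6 genes fell into 3 patterns over the regions. Cbln1, Cbln3 and Gm2694 were cerebellar, with forebrain levels of 0.64% to 1.99% of the cerebellar level. Cbln2 and Cbln4 were highest in the cortex and almost absent from the cerebellum. Grid1 was present in all regions and lowest in the cerebellum. A gene was called different between regions when it passed an FDR of 0.01 with at least a 2-fold change in either direction in edgeR's quasi-likelihood test over all 22 libraries. Of 11137 genes tested, 22.6% were called between cerebellum and cortex, 9.71% as higher in the cerebellum and 12.9% as lower. Between cerebellum and hippocampus 22.8% were called, 9.76% higher and 13.0% lower in the cerebellum, and between cortex and hippocampus 8.41%, 4.38% as higher in the cortex. Levels below are cpm scaled by TMM over all libraries, which compare a gene with itself and not with other genes.

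**Figure D1:**
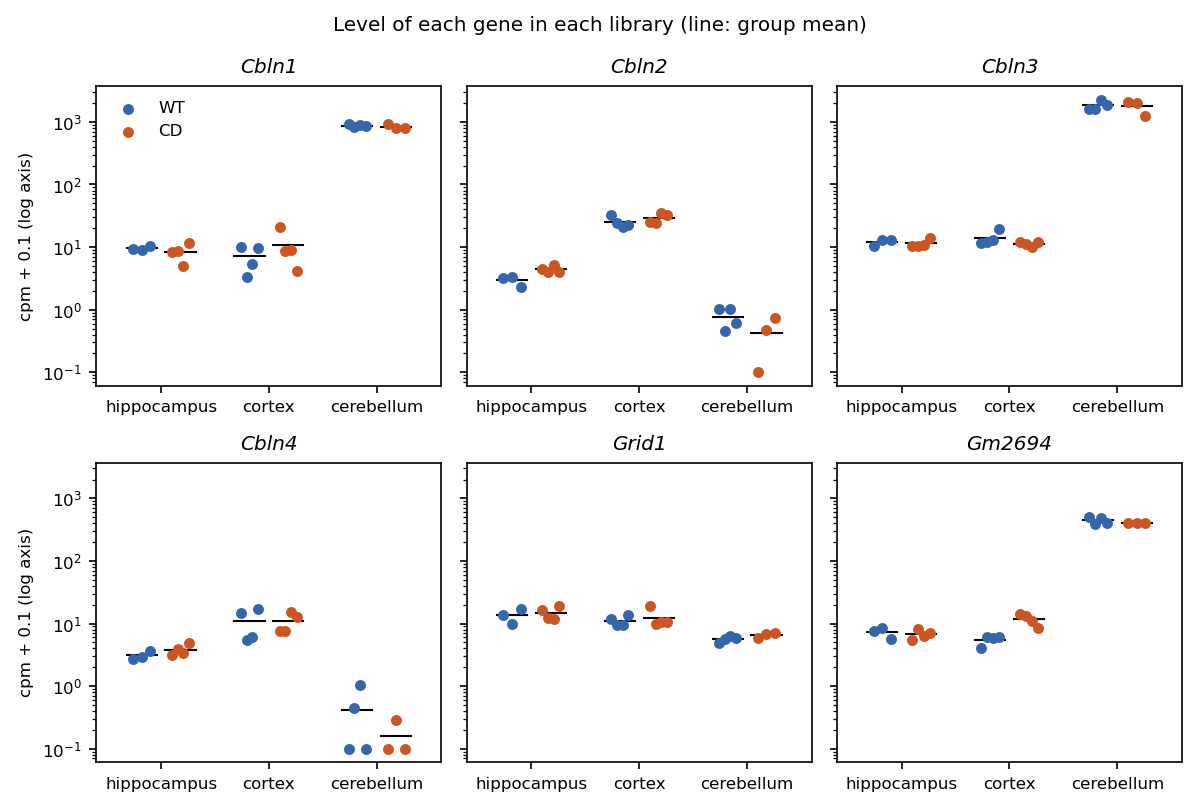
Level of the 6 genes in each of the 22 libraries, as cpm + 0.1 on a log axis, by region and genotype (blue, wild-type; orange, CD; line, group mean). Cbln1, Cbln3 and Gm2694 are above 390 cpm in every cerebellum and at most 21.1 cpm elsewhere, Cbln2 and Cbln4 are below 1 cpm in every cerebellum, and points at the bottom are libraries with no count.

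Cbln1, the granule cell cerebellin, was at 914, 839, 879 and 849 cpm in the wild-type cerebella and at 910, 809 and 801 cpm in the CD cerebella. The forebrain libraries were all far below, at 4.87 to 11.4 cpm in hippocampi (median 8.83, n = 7) and 3.22 to 21.1 cpm in cortices (median 8.73, n = 8). The cerebellum was 101-fold higher than the cortex (log2 fold change 6.65, SE 0.23, FDR 3.323e-18) and 96.4-fold higher than the hippocampus (log2 fold change 6.59, SE 0.25, FDR 1.782e-17). Cortex and hippocampus could not be told apart for Cbln1, with a log2 difference of -0.06 (95% interval -0.59 to 0.46, FDR 0.8758). Among all genes tested Cbln1 was the 28th from the top by fold change of cerebellum over cortex.

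Cbln3, the cerebellin that leaves the cell with Cbln1, spread more widely among cerebella. The wild-type cerebella had 1604, 1588, 2264 and 1866 cpm, and the CD cerebella had 2113, 1985 and 1242 cpm. The lowest value, that of CD mouse m242, was below all others, while its Cbln1 (801 cpm) lay close to the next library (809 cpm). Forebrain values of Cbln3 were even, at 10.3 to 14.1 cpm in hippocampi and 9.81 to 19.1 cpm in cortices. The cerebellum was 147-fold higher than the cortex (log2 fold change 7.20, SE 0.14, FDR 1.508e-22) and 154-fold higher than the hippocampus (7.27, SE 0.16, FDR 7.064e-22). The difference between cortex and hippocampus was 0.07 on the log2 scale (95% interval -0.23 to 0.37).

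Gm2694, whose RNA codes for no known protein, followed the same regional order. It was at 512, 391, 484 and 402 cpm in wild-type cerebella and at 407, 403 and 407 cpm in CD cerebella, with the CD values inside the wild-type range. In hippocampi it was at 5.31 to 8.36 cpm (median 6.96). The cerebellum was 54.3-fold higher than the cortex (log2 fold change 5.76, SE 0.12, FDR 1.508e-22) and 60.7-fold higher than the hippocampus (5.92, SE 0.13, FDR 5.965e-22). The other counted transcript, NR_125722.1, was at 148 to 207 cpm in cerebella and 1.99 to 7.04 cpm in the forebrain libraries. It shares most of its bases with the first and is not a separate measurement.

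Cbln2, on chromosome 18 from 86711061 to 86718283 (plus strand), had the reverse order. It was at 32.3, 24.4, 20.7 and 22.7 cpm in wild-type cortices and at 25.4, 23.8, 34.3 and 32.2 cpm in CD cortices, and hippocampi were at 2.23 to 5.16 cpm. The 7 cerebella held 23 counts of Cbln2 in all, at most 0.93 cpm, which is near the 0.37 to 0.61 cpm that 3 counts stand for in these libraries. Every cortex was above every hippocampus, and every hippocampus above every cerebellum. The fitted level was 7.66-fold higher in the cortex than in the hippocampus (log2 fold change 2.94, SE 0.17), and the fitted change of cerebellum against cortex was -5.68 (SE 0.23). Cbln2 passed the filter on low counts (5 cpm in 2 libraries) through the cortex alone, so some difference of the cortex from both other regions was given by that filter. A two-sided exact permutation test of log2(cpm + 0.5), which needs no filter and treats libraries of 1 mouse as independent, gave p = 0.000155, the smallest possible, for both differences (0.000207 after Benjamini-Hochberg adjustment over 4 such tests of Cbln2 and Cbln4). The cerebellum was lower than the hippocampus by edgeR's test (-2.74, SE 0.29, FDR 7.173e-09).

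Cbln4, the cerebellin that binds Dcc and neogenin, spread widely within the cortices of each genotype. Wild-type cortices had 14.4, 5.29, 6.10 and 17.1 cpm, and CD cortices had 7.53, 7.49, 15.4 and 12.6 cpm, from 23 to 101 counts. Hippocampi were at 2.61 to 4.83 cpm, all below the lowest cortex. Cerebella held 8 counts over 7 libraries, 4 of which had none. The fitted level was 3.14-fold higher in the cortex than in the hippocampus (log2 fold change 1.65, SE 0.29). Cbln4 too passed the filter through the cortex alone, and the exact permutation test without a filter gave p = 0.000311 for cortex against hippocampus (adjusted 0.000311) and p = 0.000155 for cerebellum against cortex (adjusted 0.000207). The fitted changes of cerebellum against cortex (-6.10, SE 0.50) and against hippocampus (-4.45, SE 0.57, FDR 2.562e-07) depend on how a few counts are handled.

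Grid1, the receptor gene among the 6, differed least between regions. It was at 9.91 to 18.9 cpm in hippocampi (median 13.7), 9.37 to 18.6 cpm in cortices (median 10.4) and 4.86 to 6.86 cpm in cerebella (median 5.76). Every forebrain library was above every cerebellum. Grid1 was 2.33-fold lower in the cerebellum than in the hippocampus (log2 fold change -1.22, SE 0.17, FDR 1.144e-06). It was 1.91-fold lower than in the cortex (-0.93, SE 0.17, FDR 4.433e-05), which missed the 2-fold threshold. Cortex and hippocampus differed by -0.29 (95% interval -0.61 to 0.04, FDR 0.1711).

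Gene-by-gene likeness of pattern was described by Pearson's r of log2 cpm over the 22 libraries, which fall into 3 regions so that r is set mainly by region. Cbln1 was most like Pkib (r = 0.993), Pcp2, Trio, Smpx and Cbln3 (0.986). Cbln3 was most like Pcp2 (0.997), Slc1a6, Trim62, Ppp1r17 and Slc41a3. Gm2694 was most like Smpx (0.991), Trim62, Ppp1r17, S100b and Slc1a6 (0.988), and its neighbour Cbln1 came 15th of 11136 genes, at 0.984, just after Cbln3 at rank 11. Pcp2, Ppp1r17, Slc1a6, Smpx and Trim62 recur in these lists. Of these, Pcp2, Ppp1r17 and Slc1a6 are known from Purkinje cells. Since r is set mainly by region, the lists do not show in which cell type a gene is expressed. Cbln2 was most like Cckbr (0.983), the brain cholecystokinin receptor, followed by Tgm3, Gcnt4, Acta1 and 9130024F11Rik. Cbln4 was most like Ptpn5 (0.966), a neuronal tyrosine phosphatase, followed by Flrt2, Sh2d5, Cyp46a1 and Nrsn1. Grid1 was most like Tenm2 (0.925), a synaptic adhesion molecule, followed by Eml2, Nexmif, Nell2 and Cpne4.

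CD and wild-type mice were next compared in each region. Gm2694 in the cortex, the value that led to this choice of genes, was at 4.02, 5.97, 5.88 and 5.97 cpm in wild-type mice m162, m164, m240 and m244. In CD mice m118, m138, m190 and m242 it was at 13.9, 13.0, 11 and 8.5 cpm. The lowest CD cortex was thus above the highest wild-type cortex. Counts were 15 to 27 in wild-type and 63 to 87 in CD cortices. The fitted difference was 2.15-fold (log2 fold change 1.10, SE 0.24), and among all 9927 genes tested in the cortex 1.25% had all CD libraries above all wild-type libraries and 2.46% had groups apart in either direction. No gene passed the thresholds in the cortex (0.00% of those tested by edgeR's quasi-likelihood test, 3.30% at an unadjusted p below 0.05, and 1 gene by DESeq2). The other transcript, NR_125722.1, gave 2.79 to 4.36 cpm in wild-type and 5.0 to 7.04 cpm in CD cortices. It shares 78.3% of its bases with the first, so this is not a separate measurement. The CD cortex level stayed at 2.71% of the cerebellar mean, against 1.27% in wild-type cortex.

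Cbln1 in the cortex was at 10.1, 3.22, 5.23 and 9.55 cpm in the wild-type mice and at 21.1, 8.54, 8.93 and 4.0 cpm in the CD mice, in the same order. The groups overlapped, and a single library, the CD cortex of mouse m118, was above all others. The log2 difference was 0.57 (SE 0.44), and 0.02 without mouse m118. That cortex was also the highest for Gm2694 (13.9 cpm) and Grid1 (18.6 cpm) and for the C1q-like gene C1ql2, which marks the hippocampus here. C1ql2 was at 50.5 cpm in it, at 42.1 cpm in the wild-type cortex of mouse m162 and at 8.04 to 19.4 cpm in the other 6 cortices. These 2 cortices also had the highest summed levels of the granule cell markers in their genotypes, 310 and 266 cpm, of which Etv1, which the forebrain expresses too, made up 262 and 225 cpm. The other 6 markers summed to 48.6 and 41.1 cpm there, within the 32.4 to 56.4 cpm of all cortices, and the part of these genes in the Cbln1 values was not tested. Without mouse m118 the Gm2694 difference was 1.01 on the log2 scale.

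The other cortical differences were small beside their errors. The log2 fold change of CD over wild-type was -0.28 for Cbln3 (SE 0.20), 0.19 for Cbln2 (SE 0.17), 0.15 for Grid1 (SE 0.24) and 0.04 for Cbln4 (SE 0.35). The groups overlapped for all of these. Of the 6 genes only Gm2694, which was chosen by this contrast, had groups apart in the cortex, as did 2.46% of all genes tested there.

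**Figure D2:**
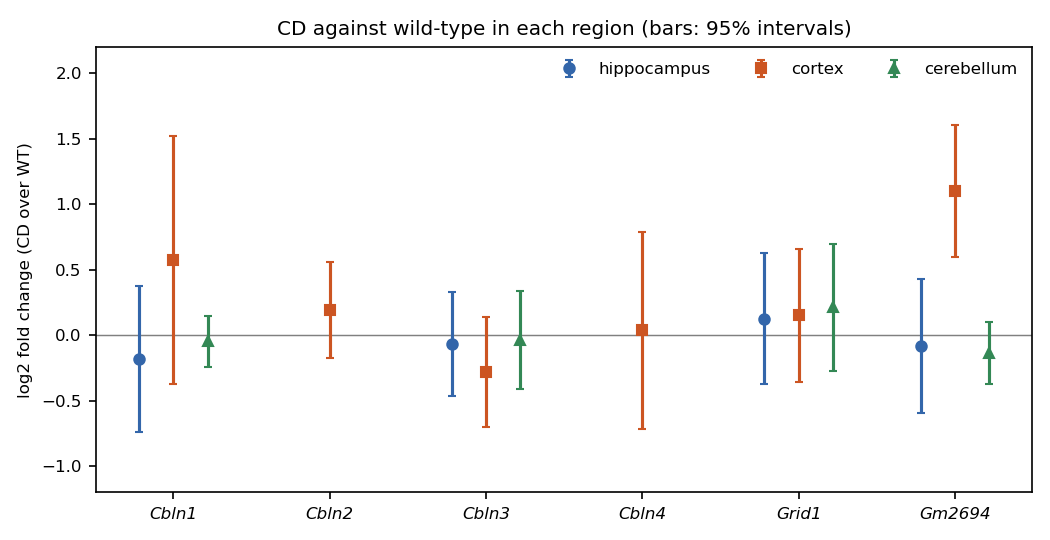
Log2 fold change of CD over wild-type libraries for each gene that passed the filter in a region (circles, hippocampus; squares, cortex; triangles, cerebellum), with 95% intervals from edgeR. Gm2694 in the cortex, the value by which the genes were chosen, lies at 1.10 and is shown as a description. The other cortical points lie between -0.28 and 0.57.

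In the hippocampus, which played no part in choosing the genes, Gm2694 was at 7.47, 8.36 and 5.50 cpm in wild-type and at 5.31, 8.02, 6.34 and 6.96 cpm in CD mice. The ranges overlapped and the log2 fold change was -0.08 (95% interval -0.59 to 0.43, FDR 0.9975). Without the library of mouse m118 it was 0.001. Cbln1 was at 9.21, 8.83 and 10.3 cpm in wild-type and at 8.35, 8.60, 4.87 and 11.4 cpm in CD hippocampi (log2 fold change -0.18, 95% interval -0.74 to 0.38, FDR 0.9975). Without mouse m118 its change was -0.18. Cbln3 changed by -0.07 (95% interval -0.46 to 0.33) and Grid1 by 0.12 (-0.38 to 0.63), and without mouse m118 by -0.03 and 0.09. The test called 0.00% of 9964 genes in the hippocampus, 4.22% at an unadjusted p below 0.05, and 2 genes by DESeq2.

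Cbln2 in the hippocampus was the other value with groups apart. Wild-type hippocampi had 3.13, 3.22 and 2.23 cpm and CD hippocampi had 4.30, 3.84, 5.16 and 3.83 cpm, from 13 to 35 counts. These levels were under the filter, so Cbln2 was compared by a two-sided exact permutation test of log2 cpm. The difference was 0.51 on the log2 scale (exact permutation p = 0.0286), the smallest p that 3 against 4 libraries allow, and 0.114 after Benjamini-Hochberg adjustment over the 4 values of filtered-out genes tested in this way. Groups did not overlap in this direction for 2.78% of the genes tested in the hippocampus, and in either direction for 5.45%. Without mouse m118 the difference was again 0.51, with the lowest CD value still at 3.83 cpm, and 3 against 3 libraries gave the smallest p they allow (exact permutation p = 0.1). Cbln4 in the hippocampus was at 2.61 to 3.61 cpm in wild-type and 3.04 to 4.83 cpm in CD mice (difference 0.26, exact permutation p = 0.229), and without mouse m118 it differed by 0.34 (exact permutation p = 0.2). The summed level of 4 choroid plexus markers ranged from 147 to 8333 cpm in wild-type and from 128 to 4215 cpm in CD hippocampi, and its part in these values was not tested. The summed granule cell markers were at 252 to 296 cpm in CD and 181 to 237 cpm in wild-type hippocampi, so that all CD libraries were above all wild-type ones here as well. Of these sums Etv1 made up at least 199 cpm in CD and 140 to 188 cpm in wild-type mice, while the other 6 markers, at 45.5 to 58.4 and 39.8 to 65.6 cpm, overlapped. The part of these markers in the Cbln2 value was not tested.

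In the cerebellum, where Cbln1, Cbln3 and Gm2694 rest on 1987 to 12186 counts, the genotypes were close. Cbln1 differed by -0.05 on the log2 scale (SE 0.09, 95% interval -0.25 to 0.15, FDR 0.9823), Gm2694 by -0.14 (SE 0.11, -0.38 to 0.10, FDR 0.9806) and Cbln3 by -0.04 (SE 0.17, -0.41 to 0.34, FDR 0.9951). Grid1 was at 4.86 to 6.32 cpm in wild-type and 5.74 to 6.86 cpm in CD cerebella (log2 fold change 0.21, 95% interval -0.27 to 0.70, FDR 0.9806). Groups overlapped for all 6 genes, while 5.23% of the 10142 genes tested there had groups apart. Here too 0.00% of genes were called by edgeR, 4.56% at an unadjusted p below 0.05. Cbln2 and Cbln4, at 23 and 8 counts, gave exact permutation p = 0.2 and p = 0.543.

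The genotype difference itself was compared between hippocampus and cerebellum in the fit over all libraries. For Gm2694 the 2 effects differed by 0.06 (95% interval -0.43 to 0.55) and for Cbln1 by -0.13 (-1.03 to 0.77). For Cbln2 they differed by 1.37 (95% interval 0.04 to 2.70), with an unadjusted p of 0.0448 by edgeR's quasi-likelihood test and an FDR of 0.9918. The cerebellar side of this Cbln2 value rests on 7 counts in CD and 16 counts in wild-type libraries. Cbln2 entered the fit through its cortical level alone. Without the CD hippocampus of mouse m118 the difference was 1.37 (95% interval -0.01 to 2.74, unadjusted p of 0.05203 by edgeR) for Cbln2, 0.13 (-0.37 to 0.63) for Gm2694 and -0.13 (-1.07 to 0.81) for Cbln1. With all libraries no gene of 11137 passed an FDR of 0.05. Whether the cortical difference of Gm2694 stands apart from the other regions was not tested, because that value chose the gene.

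Whether Gm2694 and Cbln1 vary together was asked from library to library within each region, since over all libraries the region sets both. In the cerebellum, where counts are high, Pearson's r of log2 cpm was 0.611 over 7 libraries (two-sided exact permutation p = 0.1367, adjusted over the 3 regions 0.4101) and Spearman's rho was 0.571 (p = 0.2, adjusted 0.6). Wild-type mice m162 and m240 were high for both genes, and without these 2 libraries, those farthest from the median of Gm2694, r was 0.198. With 1 library at a time left out, r ran from 0.412 to 0.858. By its r with Gm2694, Cbln1 was 989th of 10141 genes in the cerebellum (9.75% from the top), 1438th of 9926 in the cortex (14.5%) and 4520th of 9963 in the hippocampus (45.4%).

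In the cortex r was 0.405 over 8 libraries and rho was 0.238. These cortical values are read as a description only, since the Gm2694 values in them chose the gene. They also span 2 genotypes that do not overlap in Gm2694. The permutation tests were run for the cortex too, and their p-values entered the adjustment given for the cerebellum. Taken as deviations from the genotype means r was 0.310. Without CD mice m118 and m138, the 2 farthest from the median of Gm2694, r was -0.140. Wild-type mouse m162 had the lowest Gm2694 and the highest Cbln1 of its genotype. In the hippocampus r was 0.083 over 7 libraries (exact permutation p = 0.8835) and rho 0.143 (p = 0.7825), and r was 0.510 without the 2 farthest libraries, CD mouse m118 and wild-type mouse m244. With 7 or 8 libraries these values leave a wide range of relations possible.

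**Figure D3:**
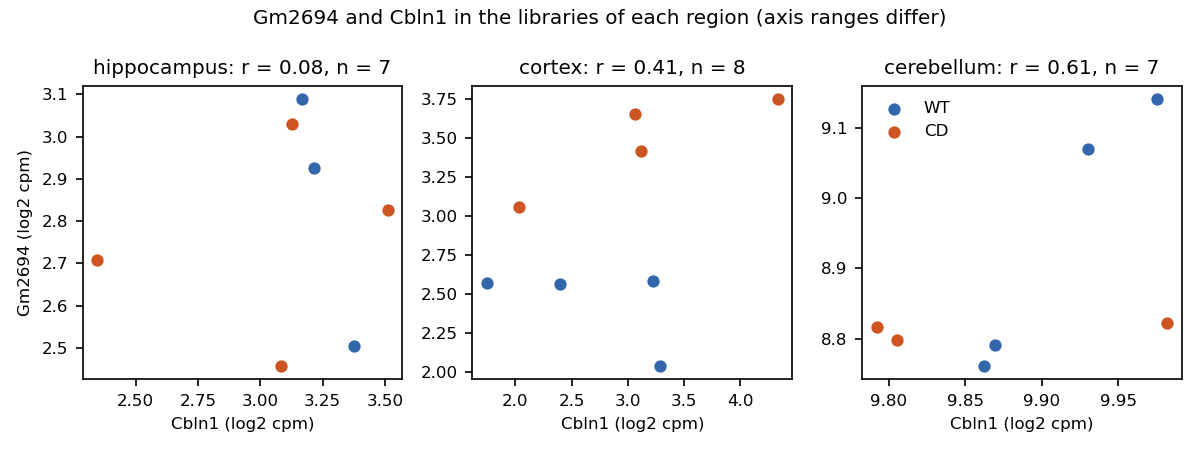
Gm2694 against Cbln1 in the libraries of each region, both as log2 cpm scaled within the region (blue, wild-type; orange, CD; the axis ranges differ between panels). In the cortex the 4 CD libraries lie above the 4 wild-type libraries on the Gm2694 axis and overlap with them on the Cbln1 axis.

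The count ratio of Gm2694 to Cbln1 in the same library was also computed, and it is not a ratio of molecules. It was 0.447 to 0.561 in the 7 cerebella (median 0.498). It was 0.533 to 1.30 in hippocampi (median 0.811) and 0.40 to 2.13 in cortices (median 1.18), where Cbln1 rests on 14 to 112 counts. In the cortex the ratio was 1.0 ± 0.65 (SD, n = 4) in wild-type and 1.39 ± 0.61 (n = 4) in CD mice, with overlapping values. Cbln3 to Cbln1 was 1.55 to 2.58 in cerebella.

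The low forebrain levels of the cerebellar genes were set beside those of 12 markers of granule and Purkinje cells, each as a share of its own cerebellar mean. In the cortex Cbln3 stood at 0.69%, Cbln1 at 1.03% and Gm2694 at 1.99%, and in the hippocampus they stood at 0.64%, 1.03% and 1.60%. Of the markers, Fat2 (0.41%), Gabra6 (0.54%), Pcp2 (0.66%) and Ppp1r17 (0.71%) were below 1% in the cortex. The other 8, which the forebrain also expresses to differing degrees, ranged up to 26.9%, and the median of the 12 was 3.72%. Fat2 and Gabra6 mark granule cells, and Pcp2 and Ppp1r17 mark Purkinje cells. Gabra6 was at 0.63 to 1.80 cpm in every cortex and was not at 0 in any. Of the markers below 1%, Gabra6 stood at 0.50% in wild-type and 0.57% in CD cortex, and Fat2 at 0.41% and 0.40%. Pcp2 stood at 0.68% and 0.65%, and Ppp1r17 at 0.71% and 0.72%. Of the others, Zic2 stood at 5.13% and 6.58%, Cdh15 at 4.9% and 6.1%, and Neurod1 at 3.74% and 4.65%. Zic1 stood at 3.19% and 3.31%, Etv1 at 23.5% and 24.7%, and Car8 at 1.57% and 1.67%. Calb1, at 18.1% and 16.3%, and Itpr1, at 27.0% and 26.9%, were lower in CD cortex. Gm2694, which was chosen by this contrast, stood at 1.27% and 2.71%. Of the 12 markers 8 had the higher mean in CD cortex. Whether cerebellar RNA in the other libraries adds to the forebrain values of the 3 genes was not tested.

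**Figure D4:**
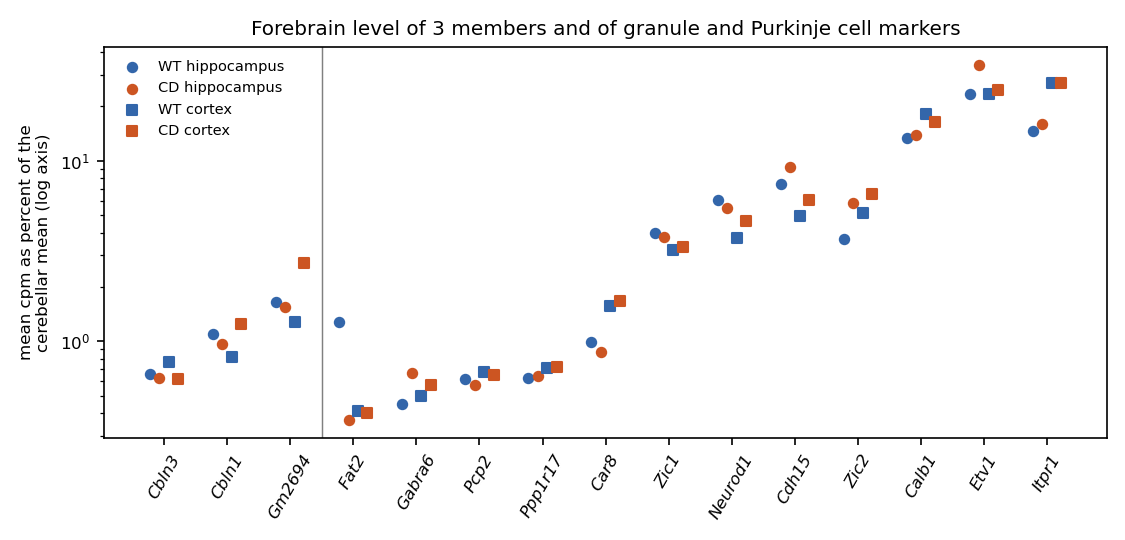
Mean level in hippocampus (circles) and cortex (squares) of wild-type (blue) and CD mice (orange) as percent of the gene's cerebellar mean, on a log axis, for Cbln3, Cbln1 and Gm2694 (left) and 12 granule and Purkinje cell markers (right). Gm2694 in CD cortex is at 2.71% and in the other 3 groups at 1.27% to 1.66%, and the lowest markers are below 1%.

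The binding partners of these proteins were compared from a fixed list. The 4 described here are Dcc, Neo1, Nrxn3 and Adgrb3, and Nrxn2, with 0 or 1 count in each library, was not tested. Between cerebellum and cortex, 0 of these 4 were called higher and 1 lower, beside 9.71% and 12.9% of all genes. The called gene was Dcc, a netrin receptor to which Cbln4 binds. Dcc was at 45.1 ± 8.15 cpm in hippocampi (SD, n = 7), 17.6 ± 6.12 cpm in cortices (n = 8) and 3.97 ± 1.27 cpm in cerebella (n = 7). It was lower in the cerebellum than in the cortex (log2 fold change -2.12, FDR 1.048e-08) and than in the hippocampus (-3.51, FDR 5.595e-13), and lower in the cortex than in the hippocampus (-1.39, FDR 7.816e-07). Neo1, the gene of neogenin, was even, at 27.0, 28.4 and 28.9 cpm on average in cerebella, cortices and hippocampi. Nrxn3 was higher in the cerebellum by 0.62 over the cortex and 0.69 over the hippocampus, below 2-fold. Adgrb3, a receptor of C1q-like proteins, differed by 0.28 and 0.03. None of the 4 was called between genotypes in any region, where edgeR called 0.00% of all genes. Their log2 fold changes ran from -0.57 (Dcc in the cortex) to 0.30.

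The C1q-like genes, relatives of the cerebellins that also act at synapses, were lower in the cerebellum. All 3 that were tested were called lower there than in the hippocampus, as were 13.0% of all genes. On the log2 scale C1ql2 was at -6.02, C1ql3 at -4.53 and C1ql1 at -1.82. C1ql3 was also called lower than in the cortex (-4.11), as were 12.9% of all genes. C1ql2 was at 643 to 955 cpm in hippocampi. C1ql4 had at most 3 counts in a library. C1ql3, at 1.84 to 3.69 cpm in cerebella, passed the filter through the forebrain alone, so some of its cerebellar difference was given by that filter. None of the 3 was called between genotypes, where edgeR called 0.00% of all genes in each region.

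The regional pattern at the Cbln1 and Gm2694 locus was compared with that of the surrounding genes. The RefSeq annotation lists 41 genes within 1 Mb of either end of Gm2694, 20 of which were in the table, 18 of them besides Cbln1 and Gm2694 themselves. Of these 18, 10 were tested between regions. Cerebellum over cortex, 2 of the 10 were called higher, where 9.71% of all genes were. They were Zfp423 (log2 fold change 1.57, SE 0.16, FDR 4.481e-09) and Cnep1r1 (1.10, SE 0.17, FDR 3.724e-06). Called lower was 1, Adcy7 (-1.44, SE 0.25, FDR 1.849e-05), where 12.9% of all genes were. The median change of the 10 was 0.23. Adcy7 passed the filter through the cortex alone, at 3.49 to 8.20 cpm there and at most 3.53 cpm in cerebella, so some of its difference was given by that filter. Zfp423 encodes a zinc finger transcription factor needed for the cerebellum to form. Over the hippocampus Zfp423 alone was called (1.10, SE 0.16), where 9.76% of all genes were called higher. The differences of Cbln1 and Gm2694, at 6.65 and 5.76 over the cortex, were thus not found at any of the 10 neighbours tested. The neighbours under the filter are not covered by this. Among them, Abcc12 was at 0.15 to 1.11 cpm in cerebella, from 31 counts in all. It had 0 counts in cortices and in hippocampi. Between genotypes none of the 9 neighbours tested in each region was called, where edgeR called 0.00% of all genes. In the cortex the log2 fold changes of these neighbours ran from -0.33 to 0.23. The 1.10 of Gm2694 there is the value by which it was chosen, so no comparison with the neighbours is drawn.

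**Figure D5:**
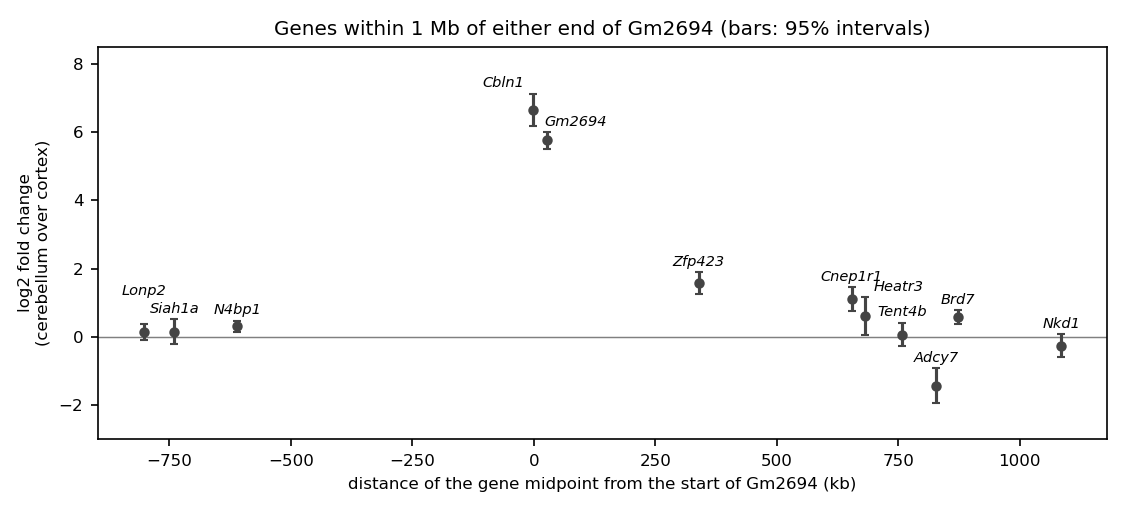
Log2 fold change of cerebellum over cortex, with 95% intervals, for the tested genes within 1 Mb of Gm2694, by distance of the gene midpoint from the start of Gm2694 in kb. Cbln1 and Gm2694 lie at 6.65 and 5.76, and the other 10 genes lie between -1.44 and 1.57.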

How the data were processed

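Libraries were made by CelSeq2 from 30 ng of RNeasy-purified RNA of each dissected region. The authors used STAR to align reads to mm10 and the End Sequence Analysis Toolkit to count them. They deposited raw counts per RefSeq transcript, with no normalization. Tool versions, the use of strand and the treatment of shared reads and molecular identifiers were not given in the sources used here. Their effect on the counts was not tested. The intervals given above come from edgeR's quasi-likelihood fits and are not intervals of counting error alone.

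Of 85964 transcripts, 69288 with 81.4% of the counts were matched to 23037 genes of the RefSeq annotation of GRCm38.p6 by accession without its version, with the transcript of highest total standing for each gene. Groups and mouse numbers came from the sample labels. Within a region, genes reaching 5 cpm in 2 or more of its libraries were tested with edgeR 4.0.16 (TMM, glmQLFit and glmQLFTest, R 4.3.3) and called at an FDR of 0.01 after Benjamini-Hochberg adjustment together with a 2-fold change. This filter kept 9964, 9927 and 10142 genes in hippocampus, cortex and cerebellum, and 4, 6 and 4 of the 6 genes described. Regions were compared in 1 fit over 22 libraries with 6 group means. Correlations used log2 cpm with a prior count of 2 and exact permutation tests (SciPy 1.17.1). Fits were tested on simulated data.

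The members and lists were chosen with earlier results of these data known. The genes named are the 6 members, their partners and relatives from fixed lists (1 listed gene is not reported here), all genes within 1 Mb of Gm2694, and the 5 genes most like each member. C1ql2 in the cortex was singled out after its values were seen. Alternatives were DESeq2 1.42.0, relative log expression factors, no filter, a filter over all libraries, summed transcripts, wild-type libraries alone, a mouse block and leaving out each library. Exact tests of regional differences without a filter, and of hippocampal differences without mouse m118, were chosen after seeing the data. For regions, equal mouse numbers in the labels were taken to mark the same animal. Deviations from the group means correlated between regions of a mouse by -0.006 to 0.092, averaged over mice. Those correlations do not themselves show a shared animal.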

Additional observations from a re-analysis of the deposited data

Results flagged for a closer look

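Among the 24 groups of 4 libraries examined, 3 held a library far from the other 3 of its group by Dixon's criterion, which chance alone gives in about 1 in 20 groups. Gm2694 in the wild-type cortex of mouse m162 was at 4.02 cpm from 26 counts, below the 5.88 to 5.97 cpm of the other wild-type cortices. Grid1 in the CD cortex of mouse m118 was at 18.6 cpm from 99 counts, above the 9.73 to 10.5 cpm of the other CD cortices, and the same library was the highest cortex for Cbln1. Cbln3 in the CD hippocampus of mouse m242 was at 14.1 cpm from 99 counts, above the 10.4 to 10.6 cpm of the others.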

How the results depend on the processing

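Of 222 values recomputed under another tool, scaling, filter, choice of transcript or set of libraries, 214 kept their direction and side of the threshold, and so did 304 of 316 recomputed without a library or mouse. With no filter, 6, 3 and 10 genes passed the thresholds between genotypes in hippocampus, cortex and cerebellum, and 1471 between cortex and hippocampus against 937. DESeq2 called 2 genes in the hippocampus and 1 in the cortex. In wild-type libraries alone Cbln4 was higher in cortex than hippocampus by 1.80, short of the threshold, where fewer libraries were used, and Gm2694 turned to -0.44. Without 1 library or mouse at a time, the genotype change ran from -0.231 to 0.062 for Gm2694, -0.378 to 0.011 for Cbln1 and -0.071 to 0.327 for Grid1 in the hippocampus, and from -0.182 to 0.165 for Cbln3 in the cerebellum. In the cortex it ran from 0.953 to 1.231 for Gm2694, 0.017 to 0.873 for Cbln1, -0.106 to 0.25 for Grid1 and -0.189 to 0.281 for Cbln4. Cbln1 of cortex over hippocampus ran from -0.341 to 0.19. The correlation of Gm2694 with Cbln1 ran from -0.134 to 0.294 in the hippocampus, 0.057 to 0.664 in the cortex and 0.412 to 0.858 in the cerebellum. Genotype counts ran from 0 to 1 in cortex and cerebellum. The cause of these shifts was not tested.

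With the mouse as a block, cerebellum over cortex was 6.70 for Cbln1, 7.16 for Cbln3 and 5.81 for Gm2694, and the block changed no other call. No paired analysis was possible between genotypes because wild-type and CD mice share no mouse number. Counts of 14 to 112 limit Cbln1 in the cortex.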
